A study of Mus musculus with 3 samples.

Results

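HNF4A and FOXA2 peaks around Sepp1, the gene of selenoprotein P (current symbol Selenop, plus strand of mouse chromosome 15), were examined in fetal liver progenitors. The members are all deposited peaks of either factor that lie on chromosome 15 between 3150000 and 3250000 (build mm9), and this interval was selected on the number and scores of the HNF4A and FOXA2 peaks called in it. It held 15 of the 21041 peaks deposited for the 2 factors, 7 of the 11703 HNF4A peaks and 8 of the 9338 FOXA2 peaks. The number, position and score of these peaks are therefore a description of the locus, with no test. All libraries came from DLK1+ hepatoblasts, purified by magnetic sorting from pooled livers of wildtype C57BL/6 embryos at embryonic day 14.5. There was 1 chromatin immunoprecipitation (ChIP-seq) library with an antibody to HNF4A, 1 with an antibody to FOXA2 and 1 of input chromatin without antibody. No group had a replicate, and no value below has an error from replicates. The lists hold no expression values, so neither the sorted cell type nor the activity of Sepp1 could be checked against RNA.

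Selenoprotein P is a secreted plasma protein made mainly by hepatocytes. It carries many selenocysteine residues and delivers selenium from the liver to other organs, where receptors of the LDL receptor family take it up. HNF4A, a nuclear receptor, maintains the hepatocyte expression programme. FOXA2, of the forkhead family, can bind nucleosomal DNA and acts early in liver development. Both are known to bind at enhancers and promoters of genes for secreted liver proteins.

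The promoter of the gene is shown through 2 short stretches, because the highest-scoring HNF4A peak of the locus covers the gene start. RefSeq lists 3 start sites for Selenop in build GRCm38.p6, the second 44 bp and the third 210 bp downstream of the first. This build differs from that of the peaks, and its coordinates were not converted. Which of these starts corresponds to the mm9 start used here was not determined. Of the 3 promoter windows, only that of the third start held any of the motifs searched. The windows of the first and second start end at 3270816 and 3270860, before the stretches shown, so the matches lie downstream of those windows. Both stretches are from the plus strand, which is the gene's strand, and capitals mark matched letters.

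Forkhead and TATA letters, chr15:3270950-3270979 (GRCm38.p6), from 27 bases before the third start: gagGTAAACAacagggcTATAAAagtcagt

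HNF4 letters, chr15:3270917-3270946 (GRCm38.p6), from 60 to 31 bases before the third start: gagcaccGAACTTTGgactgcacctcagag

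The first stretch holds the forkhead motif TGTTTAC on the opposite strand, 24 bases before the third start. This motif was present on either strand in 3.65% of 32817 RefSeq promoter windows of 300 bases. It also holds TATAAA on the gene's strand, 10 bases before that start, letters found on the gene's strand in 8.32% of promoter windows. The second stretch holds CAAAGTTC, letters of one form of the HNF4 site, on the opposite strand 53 bases before the start, as did 1.05% of windows on either strand. TATAAA and CAAAGTTC were searched after the sequence had been seen. The other motifs searched on both strands were TGTTTGC (5.06% of windows), CAAAGTCCA (0.475%) and CAAAGGTCA (0.478%), and none of these letters was in the Selenop windows. CAAAGTTC is shorter than the HNF4 motifs CAAAGTCCA and CAAAGGTCA. The base after it on its strand is G, where both of those longer motifs end in A. The motifs searched did not overlap each other in the stretches shown. A match is a description of the sequence and does not show where either factor bound.

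The site with the highest HNF4A score lay on the gene start. Distances are given from 3220800, the approximate mm9 start of Sepp1, to the peak centre, and the score is the whole number the authors deposited for each peak. The HNF4A peak at 3220754 to 3221131 had a score of 90 and its centre lay 142 bp downstream of the start. It ranked 77th of 11703 HNF4A peaks, a rank held by all 7 peaks of that score, and stood above 99.3% of the list. On chromosome 15 it was the 5th highest of 500 HNF4A peaks. The FOXA2 peak at 3220787 to 3221185 overlapped it by 345 bp and was centred 44 bp farther downstream. Its score of 27 ranked 1461st of 9338, above 83.0% of the FOXA2 list. The start site thus held the highest HNF4A score of the locus but only the 5th highest of its 8 FOXA2 scores.

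**Figure D1:**
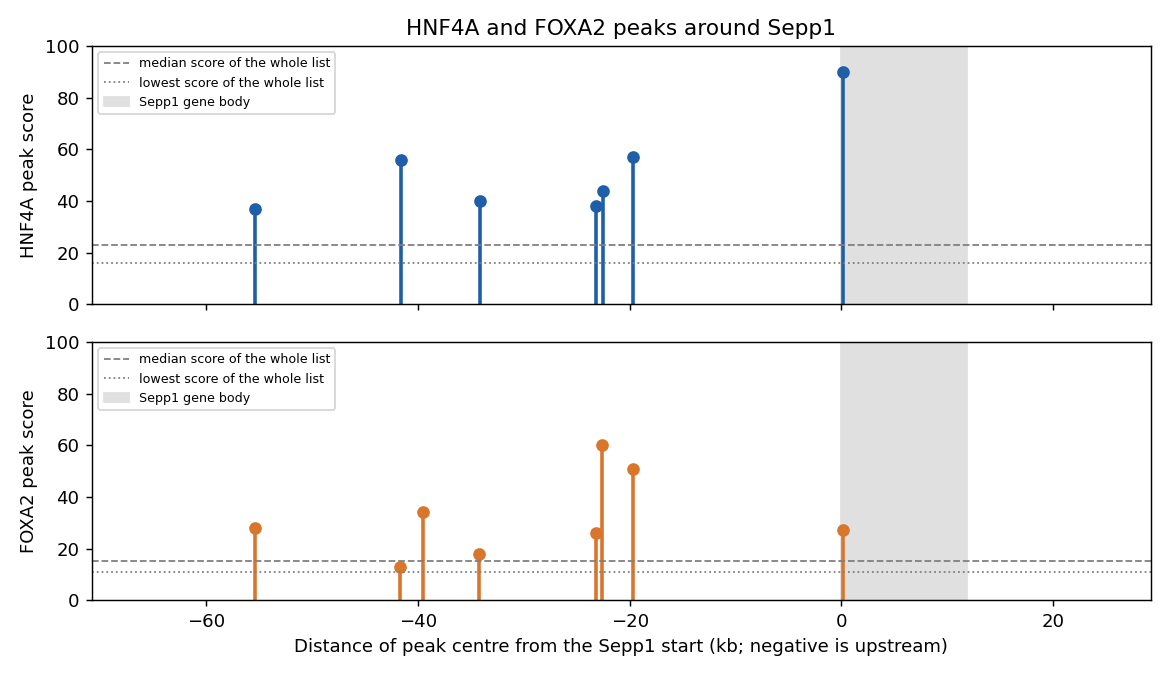
Score of each HNF4A peak (top) and FOXA2 peak (bottom) against the distance of its centre from the Sepp1 start in kb. Dashed and dotted lines are the median and the lowest score of each whole list. HNF4A is highest at the start, at 90, and FOXA2 is highest 22.6 kb upstream, at 60.

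The other 13 peaks, 6 of HNF4A and 7 of FOXA2, were centred upstream of the start and formed 6 sites with both factors and 1 with FOXA2 alone. The nearest, about 19.7 kb upstream, was high in both lists. Its HNF4A peak at 3200926 to 3201292 had a score of 57 (rank 630, above 94.3% of the list). The FOXA2 peak at 3200990 to 3201305 had a score of 51 (rank 292, above 96.6%). This was the only pair of the locus in which each peak stood in the highest 10% of its list, as did 136 of all 2879 overlapping pairs, or 4.72%. No peak of either factor lay in the 19.4 kb between it and the start site.

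Farther out, 2 pairs stood next to each other. At 22.6 kb upstream, HNF4A at 3198021 to 3198490 had a score of 44 (rank 1393, above 87.3%). FOXA2 at 3197995 to 3198367 had a score of 60 (rank 160, above 98.2%), the highest FOXA2 score of the locus and 7th on chromosome 15, where there were 344. At 23.2 kb upstream, HNF4A at 3197345 to 3197950 had a score of 38 (rank 2065, above 81.2%) and FOXA2 at 3197505 to 3197783 a score of 26 (rank 1588, above 81.4%). The HNF4A centres of these pairs were 608 bp apart and the FOXA2 centres 537 bp, so each HNF4A peak had a FOXA2 peak of its own. In the whole HNF4A list, 98 pairs of neighbouring peaks had centres at most that close, and in 9 of these pairs (9.18%) each peak had its own overlapping FOXA2 peak.

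The 3 farther pairs lay 34.2, 41.6 and 55.4 kb upstream. At 34.2 kb, HNF4A at 3186360 to 3186938 had a score of 40 (rank 1816, above 83.5%) and FOXA2 at 3186387 to 3186807 a score of 18 (rank 3197, above 61.9%). At 41.6 kb, HNF4A at 3178988 to 3179429 had a score of 56 (rank 668, above 94.0%). Its FOXA2 partner at 3178961 to 3179284 had a score of 13 (rank 5752, above 29.4%), close to the lowest score of that list, 11. At 55.4 kb, HNF4A at 3165231 to 3165632 had a score of 37 (rank 2204, above 80.0%) and FOXA2 at 3165180 to 3165502 a score of 28 (rank 1356, above 84.4%). The standing of the 2 factors was thus most unequal 41.6 kb upstream and nearly level 55.4, 23.2 and 19.7 kb upstream. The remaining pairs were in between. HNF4A stood higher 34.2 kb upstream and at the start, and FOXA2 stood higher 22.6 kb upstream.

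The remaining site held FOXA2 alone. The peak at 3181080 to 3181434, 39.5 kb upstream, had a score of 34 (rank 887, above 89.8% of the list), the 3rd highest FOXA2 score of the locus. Its nearest HNF4A centre was 2049 bp away. Of the 953 FOXA2 peaks with at least this score, 59.7% overlapped an HNF4A peak (95% Wilson interval 56.6 to 62.8%, counting error only). Of the 6467 FOXA2 peaks without HNF4A overlap, 7.24% (6.63 to 7.89%) had an HNF4A centre at most as far away. A peak absent from the HNF4A list may lie under the authors' threshold, so this site is not shown to lack HNF4A.

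All 7 HNF4A peaks of the locus overlapped a FOXA2 peak by at least 1 bp, against 24.4% of the whole HNF4A list (23.7 to 25.2%). Among the 2340 HNF4A peaks that scored at least 37, the lowest HNF4A score of the locus, the share was 37.5% (35.6 to 39.5%). Of the 8 FOXA2 peaks 7 overlapped HNF4A, against 30.7% of the FOXA2 list (29.8 to 31.7%). Since the locus was chosen for peaks of both factors, these counts are read only as a description. The HNF4A scores of 37 to 90 (median 44) were all above the upper quartile of their list, 33, which 24.2% of HNF4A peaks exceed. The FOXA2 scores ran from 13 to 60 (median 27.5), and 6 of 8 were above the upper quartile of their list, 22, which 23.4% of FOXA2 peaks exceed. Without replicates it is not known whether near scores, such as the HNF4A scores of 37, 38 and 40, differ.

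**Figure D2:**
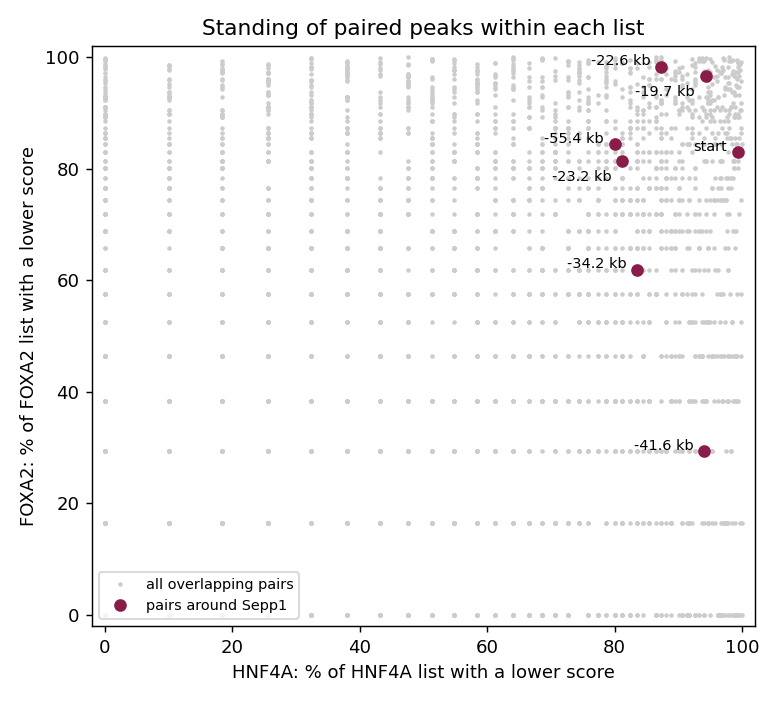
Standing of overlapping HNF4A and FOXA2 peaks as the percent of each list with a lower score. Grey points are all 2879 pairs and coloured points the 7 pairs around Sepp1, labelled by distance from the gene start. All 7 lie at 80.0% or higher for HNF4A, while FOXA2 ranges from 29.4% to 98.2%.

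The centres of paired peaks lay about as far apart as in overlapping pairs in general. The offsets between FOXA2 and HNF4A centres were 90, 86, 52, 3 and 74 bp at the sites from 55.4 to 22.6 kb upstream, where the FOXA2 centre was the farther from the gene. They were 38 bp at 19.7 kb upstream and 44 bp at the start, where the FOXA2 centre was displaced in the direction of transcription. The median of the 7 offsets was 52 bp, beside 59 bp over all 2879 pairs (interquartile range 27 to 106 bp). All 7 were within 100 bp, as were 72.7% of all pairs. At 34.2 and 23.2 kb upstream the FOXA2 peak lay wholly inside the HNF4A peak, and elsewhere 84.2 to 95.9% of the shorter peak was covered. The median coverage of the shorter peak was 93.0% at the locus, below the 97.6% over all 2879 pairs. A centre is the midpoint of a called region and not a binding position, since the files give no summits.

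**Figure D3:**
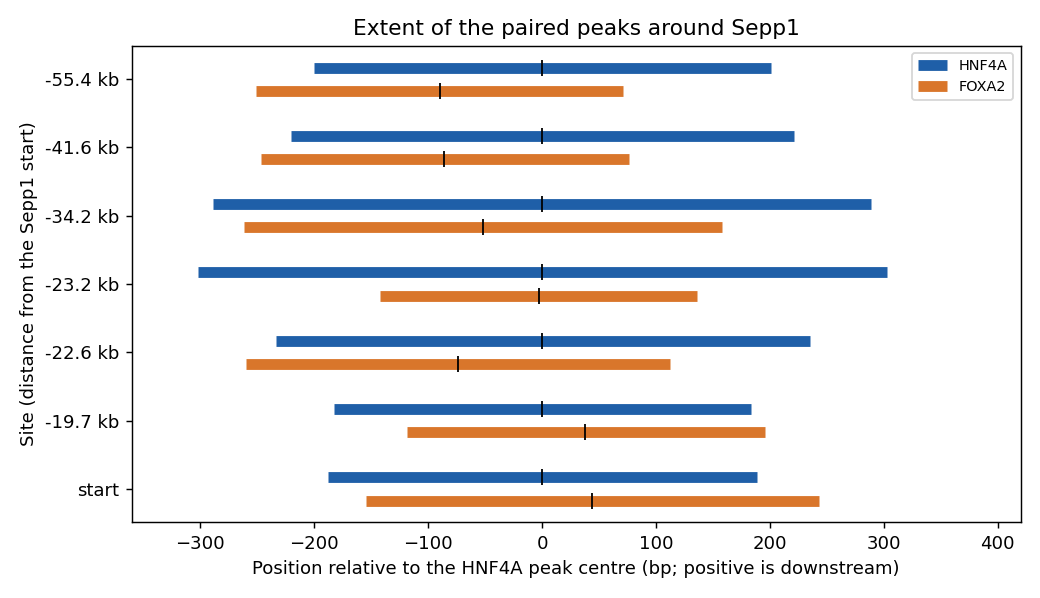
Extent of the 7 overlapping HNF4A and FOXA2 peaks in bp relative to each HNF4A centre, with black ticks at the centres. FOXA2 centres lie 3 to 90 bp upstream of HNF4A at the 5 farther sites, and 38 and 44 bp downstream at the nearest upstream site and the start.

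The locus was set beside all other windows of 100 kb in which peaks were called. Of 8450 windows with a peak of either factor, 14 held at least 15 peaks, this locus among them, and the median was 2. The number of such windows was 118 when overlapping peaks were merged, which leaves 8 sites at this locus, and 3 when peaks within 10 kb of an input region were left out. With all peaks counted, in 9 of the other 13 windows no HNF4A peak overlapped FOXA2, and 7 of those held no HNF4A peak. Among the 62 windows with 7 or more HNF4A peaks, the Sepp1 window was the only one in which every HNF4A peak overlapped FOXA2. The highest share among the other 61 was 62.5% and the median over the 62 was 22.2%. Only 1 window, on chromosome 5 from 90850000 to 90950000, held more HNF4A peaks shared with FOXA2, at 8 of 16. The lowest HNF4A score of the Sepp1 window, 37, was also the highest such minimum, since the weakest HNF4A peak of the other windows scored 16 to 27. The median HNF4A score of 44 was reached or passed in 3 of the 62 windows, this one included.

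These windows were laid out from the edges of the Sepp1 window, which keeps its peaks together and can divide other groups. Runs of 7 neighbouring HNF4A peaks that span no more than the 55.9 kb of those around Sepp1 do not depend on that layout. There were 93 such runs, which can share peaks. The Sepp1 run was the only one with FOXA2 at all 7 peaks and with no score under 37. The others had FOXA2 at 5 peaks at most, and their lowest score was at most 26. The length, span and score limits were taken from the Sepp1 peaks, so the Sepp1 run meets them by construction. The locus was picked for its peaks, so this order among windows and runs carries no test.

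**Figure D4:**
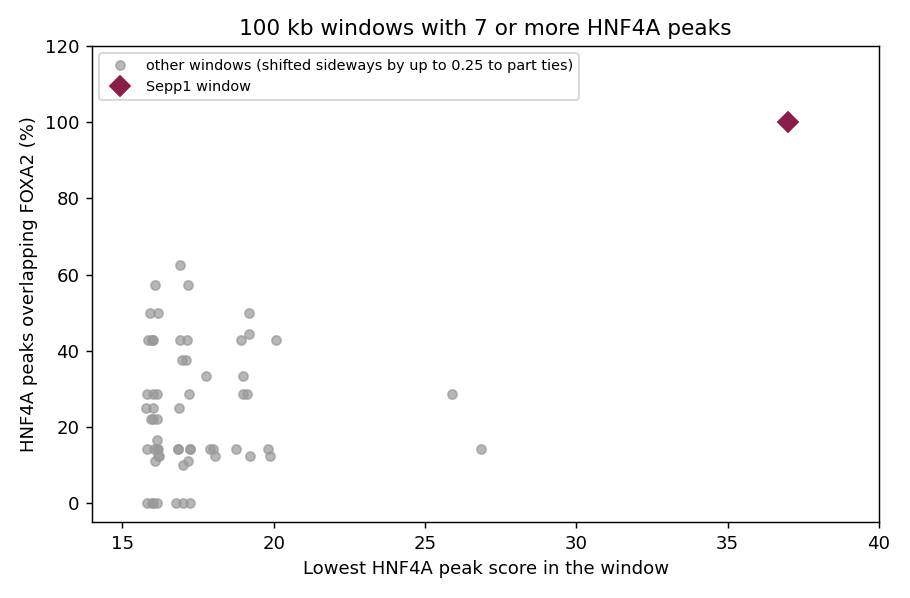
Percent of HNF4A peaks that overlap FOXA2 against the lowest HNF4A score, for the 62 windows of 100 kb with 7 or more HNF4A peaks. Grey circles are the other windows and the diamond is the Sepp1 window, at 100% and a lowest score of 37.

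The next peaks on both sides lay outside the window, at gaps that were not compared with those elsewhere in the lists. From the first to the last site it spanned 56.0 kb, from 3165180 to 3221185, and no peak of either factor was called in the rest of the gene body or downstream of it in the window. The nearest peak on the far side was a FOXA2 peak at 3033824 to 3034126 (score 53), 131.1 kb before the first site. The HNF4A list had no peak before the locus on chromosome 15, where its first peak starts at 3165231. On the gene's side the next was an HNF4A peak at 3398843 to 3399414 (score 16, the lowest of its list), 177.7 kb beyond the last site, and the next FOXA2 peak, at 3414910 to 3415216 (score 31), was 193.7 kb beyond. In the RefSeq gene order of GRCm38.p6 the next protein-coding genes after Selenop are Ccdc152 and Ghr, the growth hormone receptor gene. Those before it, LOC115489417 and LOC115489419, carry locus names only. Which gene the upstream sites act on was not measured.

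The input library had no region in the window. Chromosome 15 held 6 of the 1263 input regions, and the nearest, at 21044543 to 21044928, was 17823 kb from the locus. Of all nuclear HNF4A peaks and all FOXA2 peaks 0 overlapped an input region, so the absence of overlap is not a measure of background in the ChIP libraries. The depth of the libraries is unknown, so a low score cannot be told apart from low coverage.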

How the data were processed

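HNF4A ChIP, FOXA2 ChIP and input were each deposited by the authors as 1 list of regions with a whole-number score per region, 1 library per list. The sources used here do not say what the deposited score counts, nor name the aligner, caller or threshold. Coordinates are on mm9, per the submitters' processing notes. Positions were read as 1-based with both ends included, which makes the shortest region 200 bp in each list. Groups were taken from the antibody label.

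Peaks that touch the window were selected, and ranks were taken within each list, with the best rank for ties and "above" for the percent of peaks with a strictly lower score. Overlap means at least 1 bp. Centres are midpoints. Wilson intervals (95%) of shares of whole lists allow for counting error alone. Overlap and merging were tested on simulated data. The locus, the window and the comparisons were chosen with earlier results of these data known. Every peak in the window is named. Motif letters were searched in RefSeq promoters of GRCm38.p6, which for Selenop gave 3 entries. Other genes of selenium metabolism were not analysed here, since no mm9 gene positions were at hand. Computations used Python 3.11.15 with pandas 2.3.3, scipy 1.17.1 for intervals, numpy 2.4.6 and, for plots, matplotlib 3.10.9.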

Additional observations from a re-analysis of the deposited data

How the results depend on the processing

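Of 27 alternative settings over 9 results, 23 kept the value within 1.5 times, but some of them could hardly do otherwise. Looser overlap rules could not lower the number of peaks that already overlapped. In the windows moved by 50 kb the Sepp1 window was kept. The runs took their length and span from its peaks, so neither count could fall below 1. The number of input regions had no alternative. The number of windows with at least as many peaks, 14, was 118 when overlapping peaks were merged into sites, because the locus then counts 8 sites, and 3 when peaks within 10 kb of an input region were left out. The group nearest the gene start held 2 peaks when peaks at most 10 kb apart were joined, 15 at 25 kb, and counted as 1 site after merging. The comparisons of windows by overlap of every HNF4A peak with FOXA2 and by lowest HNF4A score were not among the results listed beforehand. Their cutoff of 7 HNF4A peaks was the locus's own count. For both, the windows moved by 50 kb and the runs of peaks were added after the data were seen. No paired analysis was possible because each group has 1 library, and for the same reason no library could be left out. Peaks under the authors' thresholds are not in the lists, and the depth behind each score is unknown.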

Other observations

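Joined at distances of at most 10 kb, the peaks around Sepp1 fell into 4 groups. The largest, at 3197345 to 3201305, held 3 HNF4A and 3 FOXA2 peaks in 3.96 kb, and 176 of the 13178 groups in both lists, or 1.34%, held at least 6 peaks. The group at 3178961 to 3186938 held 2 HNF4A and 3 FOXA2 peaks in 7.98 kb, and 341 groups held at least 5 peaks. The pairs 55.4 kb upstream and at the start each stood alone.

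Peak widths also varied over the locus. The highest-scoring HNF4A peak, at the gene start, was 378 bp wide, and the widest, 23.2 kb upstream, was 606 bp with a score of 38. Over the locus HNF4A widths ran from 367 to 606 bp (median 442 bp, beside 430 bp in the whole list). The FOXA2 peak inside the widest HNF4A peak was the narrowest of the locus, at 279 bp, and only 2.96% of FOXA2 peaks were narrower.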
